A study of Homo sapiens with 12 samples.

Results

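DDIT4, DDIT4L, SESN1, SESN2 and SESN3 are 5 human genes whose products hold back mTORC1, the nutrient-sensing kinase complex that drives protein synthesis and cell growth. They were taken by symbol from a table of read counts for 51838 genes, and each symbol matched 1 row. The libraries were made from polyA RNA of HCC70 and MDA-MB-231, established lines from basal-like breast cancers. There were 4 groups of 3 libraries: HCC70 with 100 nM dexamethasone (DEX) for 4 h, HCC70 with the ethanol vehicle for 4 h, MDA-MB-231 with 100 nM DEX for 4 h, and MDA-MB-231 with the ethanol vehicle for 4 h. Dexamethasone is a synthetic agonist of the glucocorticoid receptor, and the stated aim of the experiment was to find genes that this receptor and STAT3 control. The labels name no altered gene in either line. The culture medium was RPMI for HCC70 but DMEM for MDA-MB-231, and a difference between the lines cannot be told apart from one between these media. The labels do not say whether replicates were separate cultures, so every p-value measures the spread between these libraries, which may be technical.

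DDIT4, also called REDD1, and its paralogue DDIT4L, also called REDD2, act upstream of the TSC complex, which switches off RHEB, the small GTPase that activates mTORC1. DDIT4 is a known target of the glucocorticoid receptor in muscle and lymphoid cells, and of hypoxia, ATF4 and DNA damage pathways. The sestrins act on the amino acid branch: they bind GATOR2, which frees GATOR1 to turn off the Rag GTPases that bring mTORC1 to the lysosome. SESN2 is a leucine sensor in that branch. SESN1 and SESN2 are known targets of p53, SESN2 of ATF4 and NRF2, and SESN1 and SESN3 of FOXO factors.

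Total counts ran from 106345287 to 123218973 per library, and 28141 genes passed a filter on low counts, all 5 members among them. Levels are given as counts per 1e6 counts scaled by TMM (CPM), and genes are compared with each other only after division by exon length (RPKM). FKBP5, PER1 and TSC22D3, textbook targets of the receptor, rose 6.2-fold, 7.33-fold and 2.7-fold in HCC70 and 19.9-fold, 14.9-fold and 28.9-fold in MDA-MB-231. Of 8 basal epithelial markers, 8 reached 1 CPM in HCC70 in vehicle and 4 did so in MDA-MB-231 in vehicle. With DEX 7 did so in HCC70 and 5 in MDA-MB-231. In MDA-MB-231 in vehicle KRT5, KRT14 and TP63 measured 0.804, 0.238 and 0.326 CPM, but EGFR 356 CPM and TRIM29 14.6 CPM. So the basal label showed there in some of these markers and not in others. In HCC70 in vehicle TP63 measured 1.37 CPM and EGFR 328 CPM. Of 8 luminal markers, 6 reached 1 CPM in both HCC70 groups and 4 in both MDA-MB-231 groups. Of 6 mesenchymal markers, 2 did so in both HCC70 groups and 4 in both MDA-MB-231 groups. Among these VIM measured 145 CPM in HCC70 in vehicle and 2210 CPM in MDA-MB-231 in vehicle. Of 5 leukocyte markers, CD14 reached 1 CPM in HCC70, at 42.3 CPM with DEX and 36.4 CPM with vehicle. In MDA-MB-231 none did with DEX and ITGAM did with vehicle, at 1.32 CPM. PTPRC and CD3E stayed at or under 0.187 CPM in every group. Replicates correlated across genes at 0.996 to 0.998 in HCC70 and at 0.989 to 0.997 in MDA-MB-231, where vehicle library 1 and DEX library 2 stood apart from the others of their groups. Deviations within a line followed the GC content of genes, with a Spearman rho of 0.347 to 0.489 in the HCC70 DEX libraries and of −0.589 to −0.144 in the HCC70 vehicle libraries. In MDA-MB-231 it was −0.508, 0.254 and −0.487 in DEX and 0.666, 0.164 and −0.222 in vehicle. The members were refitted with an offset that removes this trend, and its value is given wherever it altered a call in the comparisons of DEX with vehicle or of the responses.

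The promoter windows of the members that moved under DEX or differed in their response are shown from RefSeq (GRCh38.p14), from 250 bases before to 50 bases after the transcription start, 5′ to 3′ on the gene's strand. All 5 members matched this set, with 3 windows for SESN1 and 1 for each of the others. The DDIT4 window lies at chr10:72273674-72273973 (plus strand), the DDIT4L window at chr4:100190419-100190718 (minus strand), the SESN2 window at chr1:28259268-28259567 (plus strand) and the SESN3 window at chr11:95232426-95232725 (minus strand). Capitals mark matches to the motifs searched on both strands.
DDIT4: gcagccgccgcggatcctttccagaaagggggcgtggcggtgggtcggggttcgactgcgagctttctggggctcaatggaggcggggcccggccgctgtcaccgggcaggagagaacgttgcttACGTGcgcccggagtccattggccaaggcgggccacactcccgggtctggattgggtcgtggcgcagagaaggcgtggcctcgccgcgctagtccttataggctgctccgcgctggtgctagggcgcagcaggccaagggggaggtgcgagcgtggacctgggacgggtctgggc
DDIT4L: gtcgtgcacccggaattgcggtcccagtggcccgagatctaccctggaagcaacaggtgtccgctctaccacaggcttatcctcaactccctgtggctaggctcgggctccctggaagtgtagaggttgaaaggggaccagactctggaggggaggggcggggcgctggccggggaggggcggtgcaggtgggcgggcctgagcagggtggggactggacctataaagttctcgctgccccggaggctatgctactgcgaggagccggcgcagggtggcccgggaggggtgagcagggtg
SESN2: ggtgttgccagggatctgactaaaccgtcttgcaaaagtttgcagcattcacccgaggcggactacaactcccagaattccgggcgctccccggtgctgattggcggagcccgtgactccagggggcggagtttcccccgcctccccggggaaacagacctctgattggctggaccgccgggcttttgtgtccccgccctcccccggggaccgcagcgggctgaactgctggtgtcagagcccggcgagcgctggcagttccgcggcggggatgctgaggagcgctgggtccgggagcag
SESN3: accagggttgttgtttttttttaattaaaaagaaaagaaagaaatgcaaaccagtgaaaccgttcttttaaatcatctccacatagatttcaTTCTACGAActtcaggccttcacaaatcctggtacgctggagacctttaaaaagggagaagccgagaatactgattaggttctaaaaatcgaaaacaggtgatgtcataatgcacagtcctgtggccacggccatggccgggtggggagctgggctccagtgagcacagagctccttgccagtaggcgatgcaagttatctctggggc

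The motifs were the glucocorticoid response element (AGAACA, 3 free bases and TGTTCT), its first part AGAACA alone, the hypoxia element ACGTG, the ATF4 element TGATGNAA, the FOXO element GTAAACA, the STAT element TTCNNNGAA and the AP-1 element TGANTCA. The first contains the second by construction, so any match to the first is also a match to the second. The DDIT4 window held 1 match, the hypoxia element at window position 126, which 21.4% of all 35116 RefSeq windows also held. The SESN3 window held 1 match, to the STAT element at window position 93, which 7.66% of all windows held. The windows of DDIT4L, SESN1 and SESN2 held none. AGAACA occurred in 14.8% of all windows, and the full glucocorticoid response element in 1 of them (0.00285%). TGATGNAA occurred in 3.62%, GTAAACA in 3.42% and TGANTCA in 7.71% of windows. G and C made up 69.7% of the DDIT4 window, 67.0% of that of DDIT4L and of SESN2, and 45.0% of that of SESN3. A match of letters is a description of the window and not evidence of binding.

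In HCC70 the question was how DEX alters the level of each gene. DDIT4 rose and DDIT4L fell, while the 3 sestrins did not pass the test. The 2 paralogues thus moved in opposite directions in the same libraries. Over all genes tested, 3.96% passed in this comparison (2.55% higher under DEX and 1.4% lower), so 2 of 5 members were called against this background. The genes called were 719 higher and 395 lower, and 552 higher and 762 lower with libraries scaled by total count alone, under which the members kept their calls.

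DDIT4 (ENSG00000168209.3) measured 86.2, 84.7 and 79.8 CPM in the HCC70 DEX libraries, against 36.1, 31.7 and 37.1 CPM in the HCC70 vehicle libraries. The lowest DEX library lay above the highest vehicle library. The group means were 83.5 ± 3.35 CPM with DEX and 35.0 ± 2.85 CPM with vehicle (SD, n = 3 each), a log2 fold change of 1.26 ± 0.091 (SE) or 2.39-fold, with a 95% interval of 1.06 to 1.45 on the log2 scale and adjusted p = 1.92e-06 (edgeR quasi-likelihood test, Benjamini-Hochberg adjustment over all tested genes). By fold it ranked 95th of the 719 genes that rose in this line. The exons of DDIT4 share 847 of 2058 bases with the antisense gene DDIT4-AS1, which has no row in the table, and the library kit does not keep strand, so reads of the pair cannot be told apart. Smaller exon overlaps with other annotated genes were found for SESN1 (363 of 5121 bases), SESN3 (93 of 10573) and DDIT4L (42 of 2994), and none for SESN2.

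DDIT4L (ENSG00000145358.2) measured 10.2, 9.7 and 9.68 CPM with DEX and 16.5, 15.1 and 15.4 CPM with vehicle in HCC70. Again the groups did not overlap, here with every DEX library below every vehicle library. The means of 9.85 ± 0.273 CPM with DEX and 15.7 ± 0.735 CPM with vehicle (SD, n = 3 each) gave a log2 fold change of −0.67 ± 0.16 (SE; adjusted p = 0.0321, edgeR), a 1.59-fold fall. This call was lost when any 1 of the 6 HCC70 libraries was left out, with adjusted p between 0.0869 and 0.158, while the log2 fold change stayed between −0.70 and −0.63. Groups that do not overlap were found for 32.4% of all genes tested in HCC70.

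SESN2 (ENSG00000130766.4), the leucine sensor, measured 28.4, 26.7 and 26.9 CPM with DEX and 26.5, 29.1 and 32.3 CPM with vehicle in HCC70. The groups overlapped, and the log2 fold change of −0.10 ± 0.14 (SE) did not pass (adjusted p = 0.737, edgeR), with a 95% interval of −0.40 to 0.20. With an offset for GC content and length it was −0.25 and passed (adjusted p = 0.0255, edgeR).

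SESN3 (ENSG00000149212.6) measured 15.1, 14.6 and 15.1 CPM with DEX and 16.1, 14.2 and 15.6 CPM with vehicle in HCC70. Its log2 fold change was −0.03 ± 0.08 (SE; adjusted p = 0.868, edgeR), and the interval of −0.20 to 0.14 was narrow. SESN1 (ENSG00000080546.9), the p53-responsive member first named PA26, measured 3.65, 4.09 and 4.25 CPM with DEX and 4.91, 4.79 and 3.8 CPM with vehicle in HCC70. Vehicle library 3 lay within the range of the DEX libraries, and the log2 fold change of −0.17 ± 0.10 (SE) had a 95% interval of −0.40 to 0.05 (adjusted p = 0.405, edgeR).

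**Figure D1:**
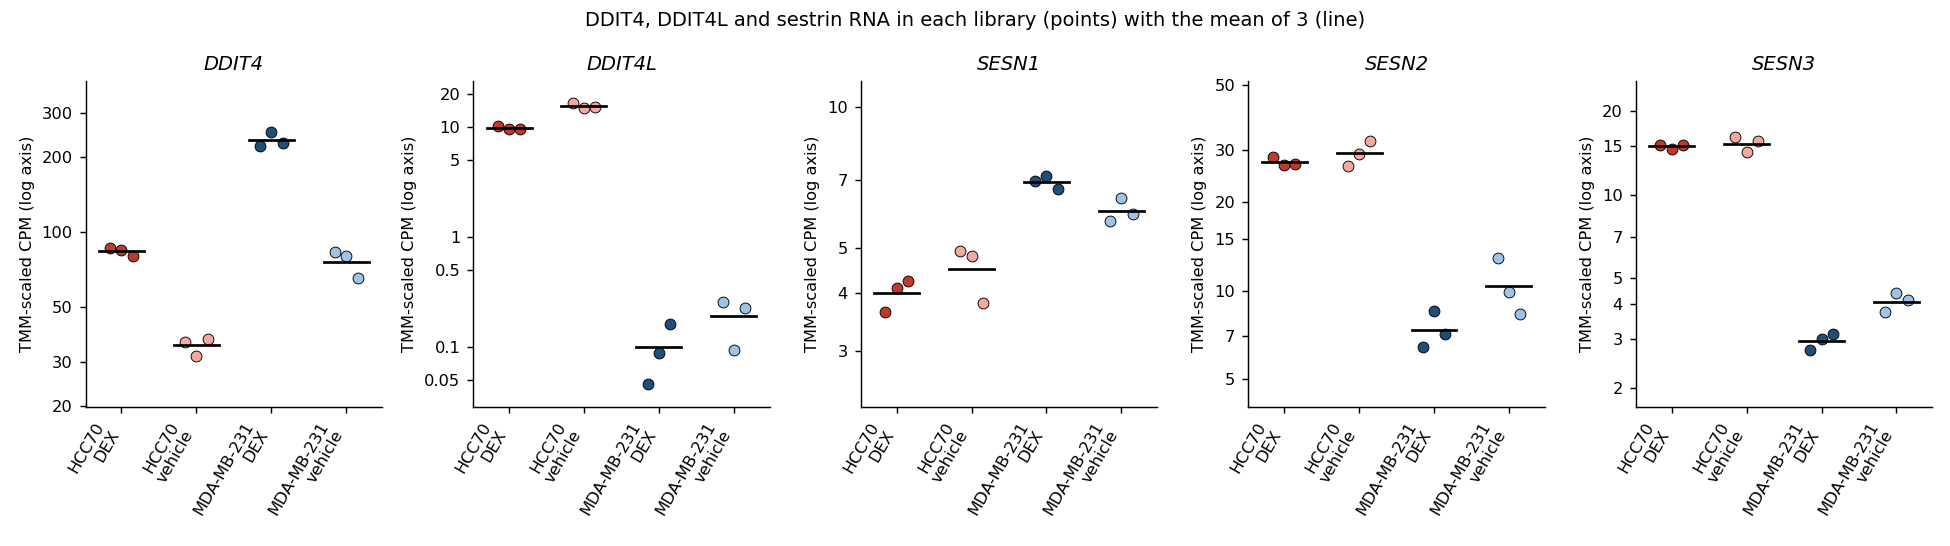
Level of each member in every library, as TMM-scaled CPM on a log axis that differs between panels. Points are libraries and lines are means of 3 libraries. DDIT4 is higher with DEX than with vehicle in both lines, and DDIT4L lies between 9.68 and 16.5 CPM in HCC70 and between 0.0459 and 0.259 CPM in MDA-MB-231.

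In MDA-MB-231 the same question gave a rise of DDIT4 and falls of SESN2 and SESN3, while SESN1 and DDIT4L did not pass. In this line 14.6% of all genes tested passed (6.65% higher under DEX and 7.96% lower), so the 3 of 5 members called are read against a larger background than in HCC70. Without vehicle library 1 and DEX library 2, the libraries that stood apart, 1 member rose and 2 fell.

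DDIT4 measured 222, 253 and 229 CPM with DEX in MDA-MB-231, against 82.7, 79.8 and 65.3 CPM with vehicle. Every DEX library was far above every vehicle library. Mean levels were 235 ± 16.1 CPM with DEX and 76.0 ± 9.33 CPM with vehicle (SD, n = 3 each), a log2 fold change of 1.63 ± 0.091 (SE) or 3.09-fold (95% interval 1.43 to 1.82 on the log2 scale; adjusted p = 2.16e-08, edgeR). It ranked 259th by fold of the 1870 genes that rose.

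SESN3, a FOXO-responsive sestrin, measured 2.73, 3.01 and 3.13 CPM with DEX in MDA-MB-231, against 3.75, 4.41 and 4.14 CPM with vehicle. No DEX library reached the lowest vehicle library, as was the case for 27.2% of genes tested in either direction. It fell by 0.47 ± 0.087 on the log2 scale (SE; 1.39-fold; adjusted p = 0.00201, edgeR), and the call held in each alternative run, with a log2 fold change between −0.53 and −0.42. The means were 2.96 ± 0.203 CPM with DEX and 4.1 ± 0.331 CPM with vehicle (SD, n = 3 each).

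SESN2 measured 6.45, 8.54 and 7.11 CPM with DEX in MDA-MB-231, against 12.9, 9.92 and 8.36 CPM with vehicle. DEX library 2 and vehicle library 3 crossed, so the groups overlapped. It fell by 0.50 ± 0.14 on the log2 scale (SE; 1.41-fold; adjusted p = 0.038, edgeR), with means of 7.37 ± 1.06 CPM with DEX and 10.4 ± 2.28 CPM with vehicle (SD, n = 3 each). Vehicle library 1, one of the libraries that stood apart, was the highest: without it the log2 fold change was −0.31 (adjusted p = 0.115, edgeR). The call was also lost without MDA-MB-231 DEX 1, DEX 3 or vehicle 2, or without HCC70 DEX 2, DEX 3 or vehicle 2 (adjusted p from 0.0565 to 0.157), and in a fit of this line alone (0.16, edgeR), and the offset for GC content and length gave −0.27 (0.0117, edgeR).

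SESN1 measured 6.94, 7.12 and 6.67 CPM with DEX in MDA-MB-231, against 5.72, 6.4 and 5.91 CPM with vehicle. The DEX libraries were all above the vehicle libraries, yet the log2 fold change of 0.20 ± 0.10 (SE) did not pass (adjusted p = 0.201, edgeR; 95% interval −0.02 to 0.42). DDIT4L was close to the limit of detection in this line, with 6, 11 and 21 counts in the DEX libraries and 31, 12 and 26 counts in the vehicle libraries. These groups overlapped, and the log2 fold change of −0.94 ± 0.39 (SE) did not pass (adjusted p = 0.129, edgeR; 95% interval −1.8 to −0.09). DESeq2 gave −0.93 and passed it (adjusted p = 0.018), as did edgeR without DEX 3 (−1.50, adjusted p = 0.0411) or without vehicle 2 (−1.29, adjusted p = 0.0227).

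**Figure D2:**
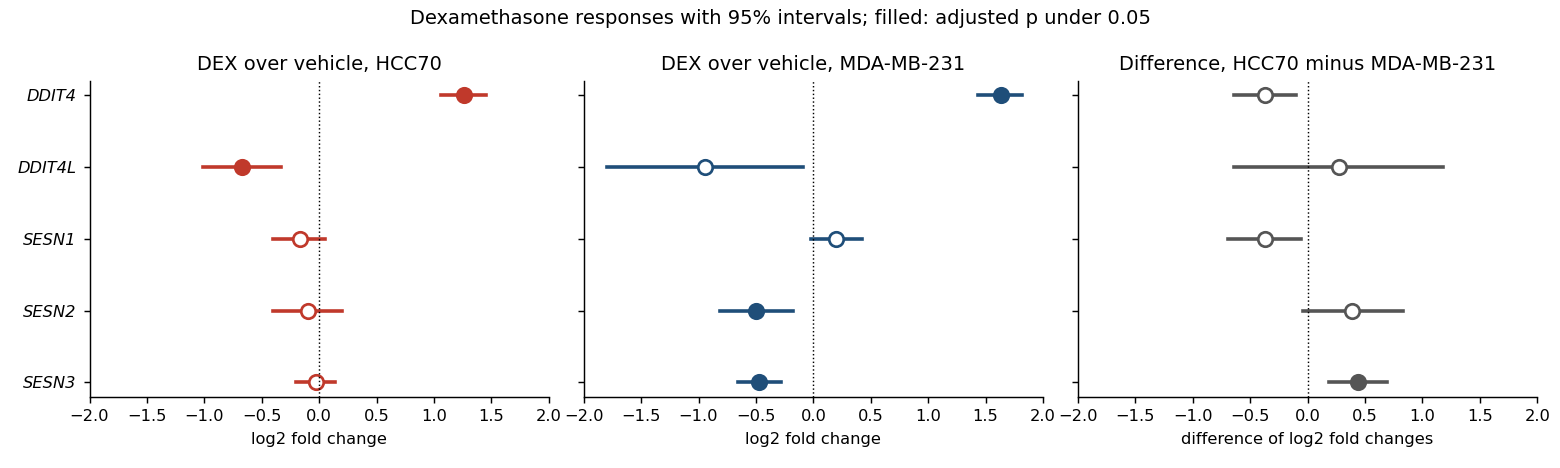
Log2 fold change of DEX over vehicle for each member in HCC70 and in MDA-MB-231, and the difference of the 2 responses, with 95% intervals from the edgeR fit. DDIT4 is to the right of 0 in both lines, and SESN3 is at −0.03 in HCC70 and at −0.47 in MDA-MB-231.

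Whether a member responded differently in the 2 lines was tested directly, as the HCC70 response minus the MDA-MB-231 response. Only SESN3 passed this test among the 5, against 12.1% of all genes tested (6.96% higher in HCC70, 5.09% lower). The genes called were 1960 with a higher and 1431 with a lower response in HCC70, and 1766 and 2498 with libraries scaled by total count alone. Its difference was 0.44 ± 0.12 (SE) on the log2 scale, with an adjusted p of 0.0291 (edgeR), the response being −0.03 in HCC70 and −0.47 in MDA-MB-231. That call was lost with libraries scaled by total count alone (0.33, adjusted p = 0.108, edgeR), and on leaving out any 1 HCC70 DEX library, HCC70 vehicle 2, MDA-MB-231 DEX 1 or MDA-MB-231 vehicle 2 (adjusted p from 0.0523 to 0.082, edgeR).

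The DDIT4 rise was 2.39-fold in HCC70 and 3.09-fold in MDA-MB-231, and the difference of −0.37 ± 0.13 (SE) on the log2 scale did not pass (adjusted p = 0.0703, edgeR; 95% interval −0.64 to −0.10). It passed under several other settings, among them DESeq2 (−0.39, adjusted p = 0.0341), leaving out MDA-MB-231 vehicle 1 (−0.44, adjusted p = 0.0339, edgeR) and the offset for GC content and length (−0.56, adjusted p = 0.00106, edgeR). DDIT4L fell in HCC70, and its difference of 0.27 ± 0.42 (SE) did not pass (adjusted p = 0.728, edgeR), with a 95% interval of −0.64 to 1.18 that leaves its direction undetermined at this depth. SESN1 had responses of −0.17 in HCC70 and 0.20 in MDA-MB-231, a difference of −0.37 ± 0.15 (SE; adjusted p = 0.106, edgeR) that passed without HCC70 vehicle 3 (−0.48, adjusted p = 0.0327). SESN2 had −0.10 in HCC70 and −0.50 in MDA-MB-231, a difference of 0.39 ± 0.20 (SE; adjusted p = 0.204, edgeR) that passed without MDA-MB-231 vehicle 3 (0.53, adjusted p = 0.0477). With the offset for GC content and length the SESN2 difference was 0.017 (adjusted p = 0.959, edgeR).

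The lines were then compared with each other in vehicle. All 5 members differed, in a comparison in which 79.2% of all genes tested did so (39.2% higher in HCC70, 40.0% lower). DDIT4L, SESN2 and SESN3 were higher in HCC70, and DDIT4 and SESN1 were lower in HCC70. DDIT4L had the widest gap, at 15.7 ± 0.735 CPM in HCC70 and 0.194 ± 0.0879 CPM in MDA-MB-231 (SD, n = 3 each), 81.5-fold higher in HCC70 (log2 fold change 6.35 ± 0.23, SE; adjusted p = 1.64e-11, edgeR). SESN3 was 3.73-fold higher in HCC70, at 15.3 ± 0.983 CPM against 4.1 ± 0.331 CPM in MDA-MB-231 (SD, n = 3 each; adjusted p = 4.08e-11, edgeR). SESN2 was 2.82-fold higher in HCC70, at 29.3 ± 2.88 CPM against 10.4 ± 2.28 CPM in MDA-MB-231 (adjusted p = 5.82e-07, edgeR).

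DDIT4 was 2.17-fold lower in HCC70 in vehicle, at 35.0 ± 2.85 CPM against 76.0 ± 9.33 CPM in MDA-MB-231 (SD, n = 3 each; log2 fold change −1.12 ± 0.091, SE; adjusted p = 3.65e-08, edgeR). SESN1 was 1.34-fold lower in HCC70, at 4.5 ± 0.606 CPM against 6.01 ± 0.348 CPM in MDA-MB-231 (adjusted p = 0.00196, edgeR). For each of the 5 genes the libraries of one line did not overlap those of the other. The share of all genes for which this held was not computed, in a comparison that 79.2% of genes tested passed. Under DEX 81.2% of genes tested differed between the lines (40.7% higher in HCC70, 40.5% lower) and the members kept their directions, with log2 fold changes of HCC70 over MDA-MB-231 of −1.49 for DDIT4, 6.62 for DDIT4L, −0.79 for SESN1, 1.89 for SESN2 and 2.34 for SESN3 (adjusted p from 5.06e-12 for SESN3 to 6.41e-06 for SESN1, edgeR). With the offset for GC content and length, SESN2 had 1.25 under DEX and 1.23 in vehicle, and both passed.

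Ordered by mean, DDIT4 was highest in MDA-MB-231 with DEX, then in HCC70 with DEX, then in MDA-MB-231 in vehicle and lowest in HCC70 in vehicle. The middle pair overlapped, with libraries of 79.8 to 86.2 CPM in HCC70 with DEX and of 65.3 to 82.7 CPM in MDA-MB-231 in vehicle. SESN1 ran from MDA-MB-231 with DEX through MDA-MB-231 in vehicle and HCC70 in vehicle down to HCC70 with DEX, and only the last pair overlapped. SESN2 and SESN3 had both HCC70 groups, which overlapped each other, above both MDA-MB-231 groups. DDIT4L ran from HCC70 in vehicle through HCC70 with DEX to MDA-MB-231 in vehicle and MDA-MB-231 with DEX, and only the last pair overlapped.

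Per exon length, DDIT4 was the most abundant of the 5 in every group. Its RPKM averaged 40.6 in HCC70 with DEX and 17.0 in HCC70 in vehicle, and 114 in MDA-MB-231 with DEX and 36.9 in MDA-MB-231 in vehicle. SESN2 was the leading sestrin, with mean RPKM of 7.91 in HCC70 with DEX, 8.48 in HCC70 in vehicle, 2.13 in MDA-MB-231 with DEX and 3.01 in MDA-MB-231 in vehicle. SESN3, whose exons span 10573 bases, measured 1.41 and 1.45 RPKM in HCC70 with DEX and with vehicle, and 0.28 and 0.388 RPKM in MDA-MB-231 with DEX and with vehicle. SESN1 measured 0.78 and 0.879 RPKM in HCC70 with DEX and with vehicle, so SESN3 exceeded SESN1 per length there. In MDA-MB-231 the order of those genes was the other way, with SESN1 at 1.35 RPKM with DEX and 1.17 RPKM with vehicle. Lengths come from an annotation on another build than that of the counts, so levels per length are approximate.

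The sestrin mix, as shares of the summed sestrin RPKM, is a description and carries no test. SESN2 made up 78.3 ± 0.929% in HCC70 with DEX and 78.4 ± 2.62% in HCC70 in vehicle, and 56.5 ± 2.96% in MDA-MB-231 with DEX and 65.3 ± 5.63% in MDA-MB-231 in vehicle (SD, n = 3 each). The share of SESN1 in MDA-MB-231 was 38.9, 33.5 and 35.6% with DEX, against 21.5, 27.5 and 29.1% with vehicle. In MDA-MB-231 every DEX library had a larger SESN1 share than every vehicle library, with no background share to set this against. The highest and lowest of these shares were in DEX 1 and vehicle 1, whose GC trends were −0.508 and 0.666. G and C make up 43.4% of SESN1 and 59.5% of SESN2 RNA, and the shares were not corrected for this trend. Neither gene passed the test of the difference between the lines, so a contrast of the mix with HCC70 is not drawn. Of DDIT4 and DDIT4L summed per length, DDIT4L made up 7.5 ± 0.2% in HCC70 with DEX and 23.6 ± 1.28% in HCC70 in vehicle, while their sum was 43.9 RPKM with DEX and 22.2 RPKM with vehicle. In MDA-MB-231 its share was 0.029 ± 0.0178% with DEX and 0.178 ± 0.0854% with vehicle.

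**Figure D3:**
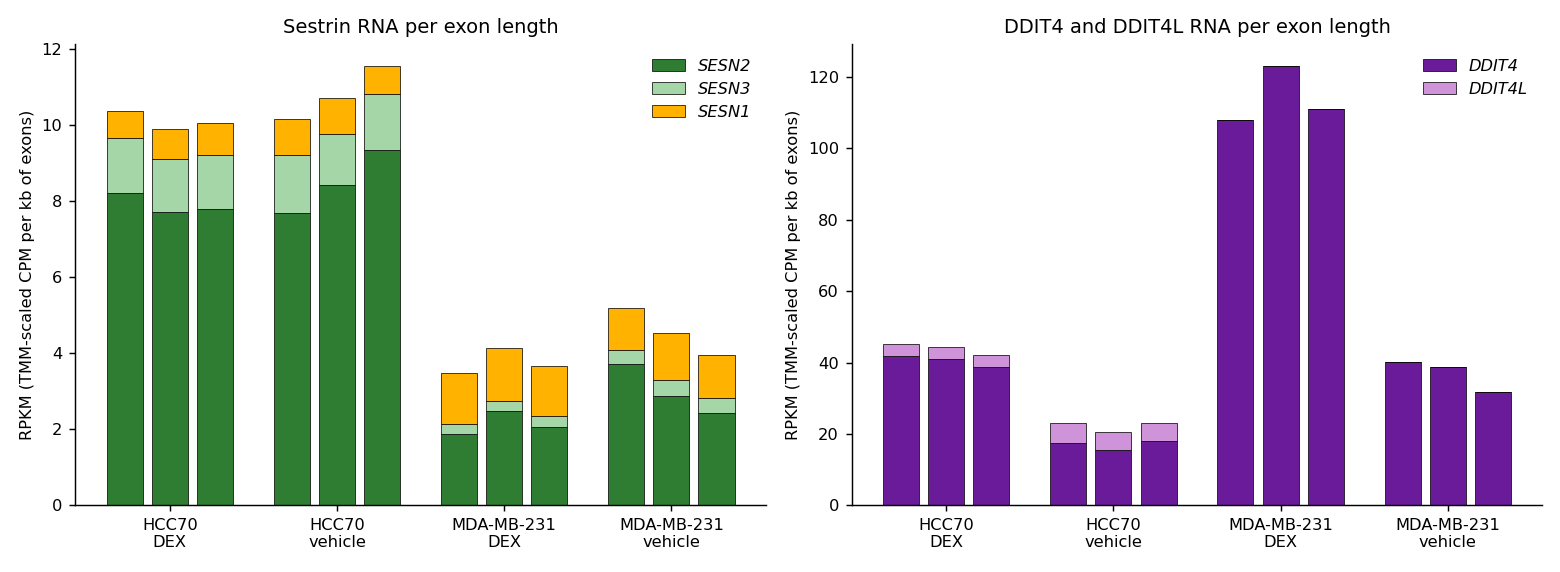
Level per exon length (RPKM, TMM-scaled) in each library, stacked over the sestrins on the left and over DDIT4 and DDIT4L on the right, whose axes differ. Bars are single libraries, 3 per group, and SESN2 is the largest part of each sestrin bar, on average 56.5% to 78.4%.

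Genes of the mTOR pathway, and oxidative stress, ATF4, p53, HIF and FOXO genes, were described from 11 lists with 132 tested genes. In HCC70 13 of these 132 genes rose and 5 fell under DEX, 13.6% called against 3.96% of all genes. In MDA-MB-231 19 rose and 17 fell, 27.3% against 14.6% of all genes. These shares are over all 11 lists and not over mTOR genes alone. Counts differed between lists: in HCC70 4 of 14 p53 targets rose and 1 fell, but 0 of 12 Rag GTPase and Ragulator genes passed. In MDA-MB-231 6 of 12 FOXO factors and targets rose and 0 fell, but 1 of 12 Rag GTPase and Ragulator genes passed. The lists were not matched to all genes on level, and no test of them was made. They were chosen with earlier results of these data known, and they hold genes also induced by glucocorticoids, such as KLF9. A share above that of all genes is therefore no measure of the response of a pathway. The median log2 fold change of the 132 genes was 0.015 in HCC70 and −0.03 in MDA-MB-231, beside −0.01 for all genes in each line. Without the 2 MDA-MB-231 libraries that stood apart the counts were 24 and 12 in HCC70 and 26 and 28 in MDA-MB-231, while genes called in the whole table numbered 3867 in HCC70 and 5785 in MDA-MB-231 of 28564 tested, beside 1114 and 4110 of 28141 with all libraries.

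The amino acid sensors that share GATOR2 with the sestrins included the largest change of the signalling lists. GATSL3, an older symbol of CASTOR1, the arginine sensor that binds GATOR2, measured 145, 144 and 146 CPM with DEX in HCC70, against 51.8, 50.7 and 54.9 CPM with vehicle. In MDA-MB-231 it measured 25.7, 34.7 and 30.2 CPM with DEX and 9.91, 8.75 and 6.56 CPM with vehicle. The groups were far apart in both lines. Its log2 fold change was 1.47 ± 0.13 (SE; 2.77-fold; adjusted p = 3.74e-05) in HCC70 and 1.84 ± 0.13 (3.59-fold; adjusted p = 1.23e-06) in MDA-MB-231, and the calls held in each alternative run (edgeR). Another annotated gene, AC004997.1, shares 46.0% of its exon bases, so its reads cannot be assigned with certainty. Of the 14 genes of GATOR1, GATOR2, KICSTOR and the arginine sensors, it was the 1 that passed in either line.

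Few genes of the kinase complexes and of the TSC branch passed the test. Of 9 genes of the mTORC1 and mTORC2 core, PRR5, an mTORC2 subunit, rose in HCC70 (log2 fold change 0.49, adjusted p = 0.0201). In MDA-MB-231 MAPKAP1, another mTORC2 subunit, rose (0.18, adjusted p = 0.0425) and RPTOR, the scaffold of mTORC1, fell (−0.38, adjusted p = 0.0408). These 3 calls were each lost in 9 or 14 alternatives. Of 10 genes of the TSC, RHEB and AKT list, 0 passed in HCC70, where AKT1, the most abundant, measured 1300 CPM with DEX and 1100 CPM with vehicle (adjusted p = 0.489). RHEB rose in MDA-MB-231 (0.23, adjusted p = 0.0255, lost in 7 alternatives). TSC2 had −0.50 ± 0.20 (SE, adjusted p = 0.129) and AKT1 −0.42 ± 0.17 (SE, adjusted p = 0.135) in that line. Neither passed, and their groups overlapped (all edgeR). Of 12 Rag GTPase and Ragulator genes 0 passed in HCC70, where LAMTOR1 measured 67.9 CPM with DEX and 67.5 CPM with vehicle (adjusted p = 0.977), and RRAGC rose in MDA-MB-231 (0.27, adjusted p = 0.013, lost in 2 alternatives, edgeR). RRAGC shares 22.9% and PRR5 17.8% of its exon bases with other genes.

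Of 9 tested AMPK and LKB1 genes 0 passed in HCC70 and 3 rose and 1 fell in MDA-MB-231. CAB39, the scaffold of the LKB1 complex, measured 121 ± 6.59 CPM with DEX and 90.2 ± 5.81 CPM with vehicle in MDA-MB-231 (SD, n = 3 each; log2 fold change 0.42, adjusted p = 0.000273). In HCC70 it measured 62.6 CPM with DEX and 62.0 CPM with vehicle (adjusted p = 0.939), and the difference of the responses passed (−0.41, adjusted p = 0.00894). The AMPK subunit PRKAB2 rose in MDA-MB-231 (0.30, adjusted p = 0.0096, lost in 2 alternatives) and the catalytic subunit PRKAA2 fell (−0.32, adjusted p = 0.0158, lost in 5 alternatives). The other catalytic subunit, PRKAA1, had 0.18 there and did not pass (adjusted p = 0.212; all edgeR). Its row (ENSG00000249325.1) was low, at 2.37 CPM with DEX and 2.08 CPM with vehicle in MDA-MB-231, and no exon overlap was computed for it. Exons of the STRADA row share 100% of their bases with other genes.

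Among 14 substrates and outputs of mTORC1, LPIN1, a phosphatidate phosphatase that mTORC1 phosphorylates, rose in both lines. It averaged 88.9 ± 3.54 CPM with DEX and 50.0 ± 1.36 CPM with vehicle in HCC70, and 59.6 ± 2.21 CPM with DEX and 34.0 ± 2.19 CPM with vehicle in MDA-MB-231 (SD, n = 3 each). Its log2 fold changes were 0.83 in HCC70 (adjusted p = 2.04e-06) and 0.81 in MDA-MB-231 (adjusted p = 4.38e-07). GRB10, an adaptor that dampens insulin signalling and is stabilised by mTORC1, went opposite ways. It rose in HCC70, with 75.9 CPM under DEX against 52.4 CPM in vehicle (log2 fold change 0.54, adjusted p = 4.34e-05), and fell in MDA-MB-231, with 80.1 CPM under DEX against 106 CPM in vehicle (−0.41, adjusted p = 0.000116). The difference of 0.94 ± 0.076 (SE) passed (adjusted p = 2.41e-06). PDCD4, an inhibitor of translation initiation, rose in MDA-MB-231 (0.50, adjusted p = 0.000293; all edgeR), and shares 29.5% of its exon bases with other genes.

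The stress pathways known to act on the members were listed as well. Whether any of them acted on the members in these libraries was not tested. Of 12 genes in the list of sestrin partners and the oxidative stress response, 0 rose and 1 fell in HCC70, and 1 rose and 3 fell in MDA-MB-231. NFE2L2, the gene of NRF2, fell in HCC70 (log2 fold change −0.26, adjusted p = 0.0335, lost in 7 alternatives). RBX1 rose in MDA-MB-231 (0.26, adjusted p = 0.0389, lost in 10 alternatives). In MDA-MB-231 SQSTM1, the p62 adaptor, fell by 0.52 (adjusted p = 0.00013), HMOX1, which degrades haem, by 0.56 (adjusted p = 0.000445) and SRXN1, which repairs peroxiredoxins, by 0.37 (adjusted p = 0.00115). Of 14 ATF4 targets 1 rose and 1 fell in HCC70, and 0 rose and 5 fell in MDA-MB-231. TRIB3, a pseudokinase, rose (0.37, adjusted p = 0.0312, lost in 8 alternatives) and SLC7A11, the cystine importer, fell (−0.58, adjusted p = 0.00187) in HCC70. PPP1R15A, which restores translation after stress, fell in MDA-MB-231 (−0.76, adjusted p = 1.2e-06), as did ATF5 (−0.25, adjusted p = 0.019) and CTH (−0.40, adjusted p = 0.0276; all edgeR), and these last calls were each lost in 7 alternatives. Exons of ATF5, SQSTM1 and NFE2L2 share 26.2%, 22.0% and 21.7% of their bases with other genes. With the offset for GC content and length, 3 of the 14 ATF4 targets fell in MDA-MB-231. ATF4 itself measured 101 CPM with DEX and 106 CPM with vehicle there. SESN2, also an ATF4 target, fell in the same line, with a call that several alternatives lost, and a link to ATF4 was not tested.

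Of 14 p53 targets 4 rose and 1 fell in HCC70, and 2 rose and 2 fell in MDA-MB-231. GADD45A, a growth arrest gene, rose by 0.52 (adjusted p = 0.000585) and PLK3, a stress kinase, by 0.46 (adjusted p = 0.0112, lost in 5 alternatives) in HCC70. In MDA-MB-231 CDKN1A, the cell cycle inhibitor p21, rose by 1.81 (adjusted p = 6.42e-10) and GADD45A by 1.04 (adjusted p = 1.06e-07). TNFRSF10B, a death receptor, rose in HCC70 (0.34, adjusted p = 0.00114) and fell in MDA-MB-231 (−0.66, adjusted p = 3.9e-07; all edgeR). SESN1, a p53 target too, did not pass in either line, and a link to p53 was not tested.

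Of 12 HIF targets 1 rose and 1 fell in HCC70, and 1 rose and 4 fell in MDA-MB-231. VEGFA, the angiogenic growth factor, measured 660 CPM with DEX and 505 CPM with vehicle in HCC70 (log2 fold change 0.38, adjusted p = 0.00492) and 246 CPM with DEX and 572 CPM with vehicle in MDA-MB-231 (−1.22, adjusted p = 2.46e-08). EGLN3, an oxygen-sensing hydroxylase, fell by 0.26 in HCC70 (adjusted p = 0.0347, lost in 8 alternatives) and by 0.38 in MDA-MB-231 (adjusted p = 0.00108). ADM, a vasodilator peptide, fell by 0.52 in MDA-MB-231 (adjusted p = 0.00456; all edgeR). DDIT4, which is also a known hypoxia-induced gene, rose in this line, and a link to HIF was not tested.

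Of 12 FOXO factors and targets 3 rose and 1 fell in HCC70, and 6 rose and 0 fell in MDA-MB-231. The median log2 fold change of this list was 0.11 in HCC70 and 0.73 in MDA-MB-231, and 6 of its genes had a lower response in HCC70 by the test of the difference. KLF9, a transcription factor also induced by glucocorticoids, rose by 1.77 in HCC70 (adjusted p = 2.34e-06) and by 4.23 in MDA-MB-231 (adjusted p = 3.81e-10). BCL6, a transcriptional repressor, rose by 0.66 in HCC70 (adjusted p = 7.8e-06) and by 1.23 in MDA-MB-231 (adjusted p = 2.99e-09). FOXO3 rose by 0.46 in HCC70 (adjusted p = 0.00803, lost in 2 alternatives), and FOXO1 rose by 1.86 in MDA-MB-231 (adjusted p = 1.01e-09; all edgeR). SESN3, a FOXO target, fell in MDA-MB-231, and a link to FOXO factors was not tested.

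**Figure D4:**
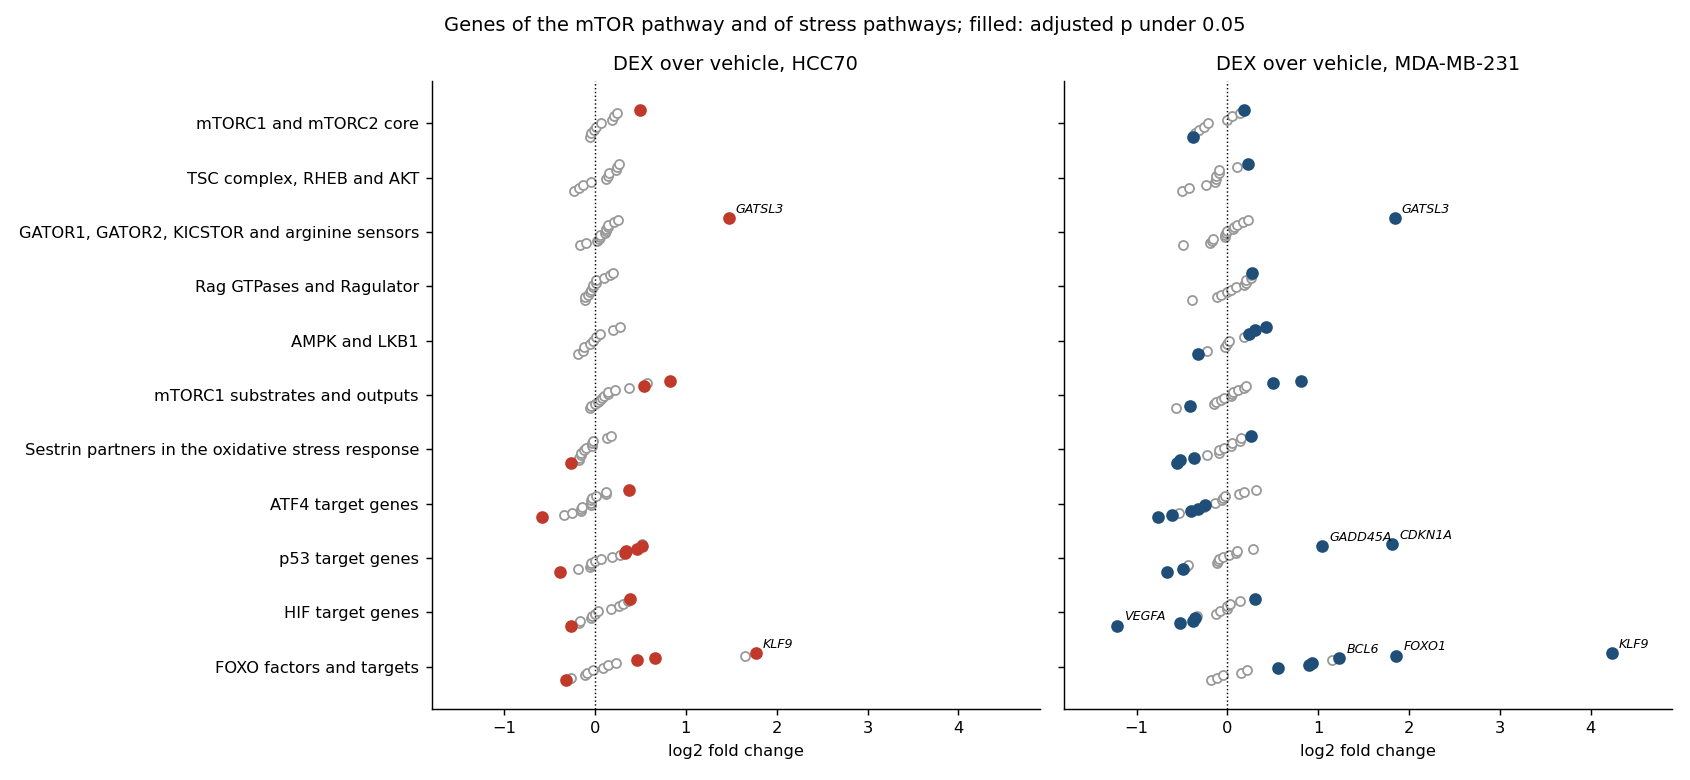
Log2 fold change of DEX over vehicle for the 132 genes of the 11 lists, with HCC70 on the left and MDA-MB-231 on the right. Filled points passed the edgeR test, and labelled points moved by more than 1 on the log2 scale. GATSL3 stands alone in its list at 1.47 in HCC70 and 1.84 in MDA-MB-231.

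Across the 12 libraries the genes with the profile most like each member were found by Pearson correlation of log2 CPM among 17711 genes. These values describe 12 libraries that share line and treatment. Both lines are pooled, and 79.2% of genes tested differed between them in vehicle. A gap between the lines can by itself give a high correlation, and shared control was not tested. Nearest to DDIT4 were SH3BP4 (r = 0.9976), BIRC3 (0.9864) and ABLIM3 (0.9837). For DDIT4L they were PCDHB8 (0.9972), ARHGEF25 (0.9968) and RP11-420G6.4 (0.9965). In HCC70 PCDHB8 averaged 5.74 CPM with DEX and 6.18 CPM with vehicle, where DDIT4L averaged 9.85 CPM and 15.7 CPM. SESN1 was closest to CTC-308K20.1 (0.9775), ECD (0.9768) and UBE2D2 (0.9766), and among the genes closest to SESN2 were PI4KB (0.9982) and GATA2 (0.9975). SESN3 was closest to SCD (0.9991), AL139819.1 (0.9991) and ZCCHC2 (0.9987).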

How the data were processed

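RNA of 12 libraries was sequenced with a polyA, transposase-based kit that does not keep strand, with paired ends, per the labels' protocols. The authors deposited whole-number read counts per gene, not scaled between libraries. The genome build was hg19, with TopHat 1.4.1, Cufflinks 1.3.0 and bedtools named without roles, per the submitters' processing notes, and the counting tool is not given in the sources used here. Of 51838 genes, 11496 had no count. The annotation at hand is on GRCh38, so it served for exon length, GC content and exon overlap, and no gene coordinates are printed.

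Counts were scaled by TMM, filtered with filterByExpr (minimum count 10) and fitted in edgeR 4.0.16 (R 4.3.3) by the quasi-likelihood test with 1 mean per group over all 12 libraries, which therefore share 1 estimate of the spread (robust, with 8 residual and 5.64 prior degrees of freedom). Tests were two-sided, with Benjamini-Hochberg adjustment over 28141 genes and a threshold of 0.05. Each adjusted p without another tool named comes from edgeR. Intervals are 95% and are not adjusted. Scripts were tested on simulated counts.

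The members, lists and alternatives were chosen with earlier results of these data known. From each list and line, up to 3 passing genes with the smallest adjusted p are named (the most abundant where none passed), and for each member the 3 genes most like it. Some genes of these rules and lists are not reported here. Alternatives were other scalings, other filters, DESeq2 1.42.0, limma 3.58.1 voom, no robust fit, a replicate block, an offset for GC content and length, each line alone, and each library or both divergent MDA-MB-231 libraries left out. The counts of list genes under the last and the offset were added after seeing the data.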

Additional observations from a re-analysis of the deposited data

Results flagged for a closer look

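Among the members, the response of SESN3 differed between the lines by the test of the difference itself, at 0.44 on the log2 scale (HCC70 minus MDA-MB-231). Its log2 fold change of DEX over vehicle was −0.03 in HCC70 and −0.47 in MDA-MB-231. The call of the difference (adjusted p = 0.0291, edgeR) was lost with libraries scaled by total count alone and with the replicate block. It was also lost on leaving out any 1 HCC70 DEX library, HCC70 vehicle 2, MDA-MB-231 DEX 1 or MDA-MB-231 vehicle 2.

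The same test was passed by named genes around the members, each given as the HCC70 response minus the MDA-MB-231 response on the log2 scale. The list genes among them had been named for passing within a line, which makes a pass here more likely. Of all 132 list genes 24.2% passed this test, against 12.1% of all genes tested, and the lists were chosen with earlier results of these data known. In the mTOR complexes and their upstream branch it was passed by RPTOR (0.57), PRR5 (0.84), RRAGC (−0.33), PRKAB2 (−0.36) and CAB39 (−0.41). These calls were lost in 13 alternatives for RPTOR, 8 for PRR5, 12 for RRAGC, 9 for PRKAB2 and 1 for CAB39. Among outputs the values were −0.55 for PDCD4 and 0.94 for GRB10. In the oxidative stress list they were −0.30 for NFE2L2, 0.50 for SQSTM1, 0.50 for SRXN1 and 0.40 for HMOX1, where the call was lost in 12 alternatives for NFE2L2, in 17 for HMOX1 and in 0 for SQSTM1 and SRXN1. For ATF4 targets they were 0.70 for TRIB3 and 0.89 for PPP1R15A. The p53 targets CDKN1A (−1.48), GADD45A (−0.52), PLK3 (0.95) and TNFRSF10B (1.00) passed. So did the HIF targets VEGFA (1.6) and ADM (0.88) and the FOXO genes FOXO1 (−1.73), BCL6 (−0.56) and KLF9 (−2.45). For the receptor targets the values were −1.68 for FKBP5, −1.02 for PER1 (adjusted p = 0.0451, edgeR) and −3.42 for TSC22D3. Why these responses differ was not tested.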

How the results depend on the processing

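Of 610 values of the members under alternatives, 563 kept their direction and side of the threshold. The rise of DDIT4 in each line, the fall of SESN3 in MDA-MB-231, and the differences between the lines under DEX kept both in each alternative run. Values below are log2 fold changes, and the cause of each change was not tested. The fits with a replicate block gave −0.67 for DDIT4L in HCC70, −0.48 for SESN2 in MDA-MB-231, 0.44 for the SESN3 difference and −0.38 for SESN1 between the lines in vehicle, none of which passed. They called 481 genes in HCC70, 2551 in MDA-MB-231 and 1480 for the difference. The labels do not say whether samples with the same number share more than that number. Deviations of such pairs correlated at −0.157, 0.0855 and 0.0116 in HCC70 and at −0.507, −0.214 and 0.255 in MDA-MB-231. Pairs of different number ran from −0.185 to 0.166 in HCC70. In MDA-MB-231 they reached 0.64 for DEX 2 with vehicle 1, the libraries that stood apart, and −0.582 for DEX 2 with vehicle 3. DEX 1 with vehicle 3 had 0.513. The replicate block does not model pairs of different number.

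The DDIT4 difference passed at −0.41 with upper quartile scaling, −0.49 with library size only, −0.39 with DESeq2, −0.56 with the offset for GC content and length, −0.56 with that offset and the replicate block, and −0.40 without both divergent MDA-MB-231 libraries. The offset gave a SESN2 fall in HCC70 of −0.25 and a SESN3 value there of 0.003. With the block added it gave 0.004 for that SESN3 value, and left DDIT4L in HCC70 (−0.57) and SESN1 between the lines in vehicle (−0.32) without a call. SESN2 in MDA-MB-231 lost its call with no low-count filter (−0.49) and with that line alone (−0.49). DESeq2 called DDIT4L in MDA-MB-231 (−0.93), the SESN3 difference was not called with library size only (0.33), and the DDIT4L difference was −0.096 without both divergent libraries.

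Called genes in HCC70 numbered 1686 by DESeq2, 1992 with the offset, 4828 with that line alone and 3867 without both divergent libraries, beside 1114. In MDA-MB-231 they numbered 2116 with that line alone, beside 4110, and for the difference 6206 without both divergent libraries, beside 3391. Library size alone shifted the median of all genes to −0.125 for the difference and −0.108 between the lines in vehicle.

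Leaving out 1 library at a time gave −0.44 to −0.27 for the DDIT4 difference, −0.70 to −0.63 for DDIT4L in HCC70, −1.50 to −0.59 for DDIT4L in MDA-MB-231 and −0.078 to 0.83 for the DDIT4L difference. It gave −0.48 to −0.31 for the SESN1 difference, −0.63 to −0.31 for SESN2 in MDA-MB-231, 0.21 to 0.53 for the SESN2 difference, −0.084 to 0.004 for SESN3 in HCC70 and 0.38 to 0.49 for the SESN3 difference. Called genes ran from 510 to 1775 in HCC70, from 2424 to 6452 in MDA-MB-231 and from 1614 to 6259 for the difference. Depth limits DDIT4L in MDA-MB-231, which rests on 6 to 31 counts per library.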
